A study of Mus musculus with 12 samples.

Results

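Styk1 (ENSMUSG00000032899) encodes a receptor-like protein kinase, also called NOK, and it is described here as 1 gene of the 14004 in the deposited expression table. It was chosen by its measured values, as the only gene whose difference between genotypes was called different in liver and in thymus, so its own levels are given as a description, with no test. RNA-seq had been carried out on sorted iNKT1 cells of mice, invariant natural killer T cells of the T-bet-positive type 1 subset, in 4 groups of 3 libraries. Control cells came from Tbx21Cre Rosa26-YFP+ mice and conditional knockout (cKO) cells from Tbx21Cre Ets1F/F Rosa26-YFP+ mice, each from thymus and from liver. All 12 libraries thus came from mice with the Cre and the YFP reporter, and all cells were sorted as CD1d-tetramer-positive and YFP-positive. The floxed gene encodes the transcription factor Ets1, and the Tbx21 (T-bet) driver limits its deletion to cells that have expressed T-bet. The labels name the cells as primary and give neither the age of the mice nor whether the 3 libraries of a group came from separate mice, so p-values measure only the spread between these libraries, which may be technical.

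The protein has a short extracellular part, 1 membrane-spanning segment and an intracellular kinase-like domain. It has been linked to signalling through PI3K and AKT and through RAS and MAP kinases, and to the Beclin 1 complex that starts autophagosome formation. In mouse lymphocytes the gene is best known from natural killer cells and from T cells that carry NK receptors, iNKT cells among them, and it lies in the region of chromosome 6 that also holds the C-type lectin NK receptor genes. In the mouse annotation (build GRCm38) it spans 131299142 to 131353597 on the minus strand of chromosome 6, with 5 annotated transcripts, 2 of them protein coding, and 5865 bases of merged exon.

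Styk1 RNA was plentiful in control thymus, cKO thymus and cKO liver cells and was at or near the limit of detection in control liver cells. In control thymus the normalised values, adjusted for library size by the authors, were 3609.8, 4717 and 8599.9 (mean 5642 ± 2621, SD, n = 3). In cKO thymus they were 16111, 10136 and 7747 (mean 11331 ± 4308, SD, n = 3). The cKO thymus mean was 2.01 times the control thymus mean, but the groups overlapped, since the highest control thymus library lay above the lowest cKO thymus library.

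In cKO liver the values were 3528, 2812 and 1628 (mean 2656 ± 959, SD, n = 3). The highest of them lay just below the lowest control thymus library, so by these values the cKO liver libraries were the lowest of the 9 libraries in which the gene was plentiful. The control thymus mean was 2.12 times and the cKO thymus mean 4.27 times the cKO liver mean. In control liver the values were 0, 5.98 and 0.889 (mean 2.29 ± 3.23, SD, n = 3). The lowest of the other 9 libraries was 272 times the highest control liver library, while those 9 libraries spanned a 9.89-fold range among themselves.

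**Figure D1:**
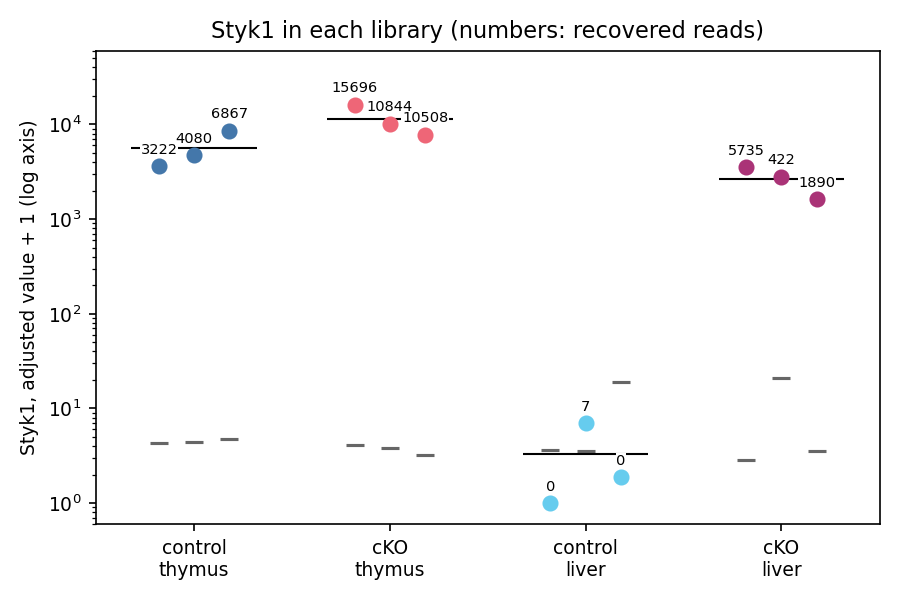
Normalised value of Styk1 plus 1 (log axis) in each library of the 4 groups, with the number of recovered reads printed at each point, black bars at the group means and grey dashes at the value that 3 reads would have in that library. The 9 libraries outside control liver lie between 1628 and 16111, and the 3 control liver libraries lie at 0 to 5.98.

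The reads behind these values could be recovered from the steps of the deposited numbers. Styk1 had 3222, 4080 and 6867 reads in control thymus, 15696, 10844 and 10508 in cKO thymus, and 5735, 422 and 1890 in cKO liver. In control liver it had 0, 7 and 0 reads. The group thus held 7 Styk1 reads among 63.1 M gene reads (M, 1000000), against 8047 among 73.7 M in cKO liver. Libraries 1 and 3 of control liver held 31.6 M and 3.86 M reads. A limit of 3 reads was set for their counts of 0, or 0.095 and 0.776 reads per M. The upper 95% exact Clopper-Pearson limits there were 0.117 and 0.954 reads per M. Library 2 held 27.7 M reads and 0.253 Styk1 reads per M (95% exact Clopper-Pearson interval 0.102 to 0.521). The lowest library outside control liver, cKO liver library 3, held 69.7 per M (66.6 to 72.9). These intervals and limits cover counting error only.

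The shallowest library of all was cKO liver library 2, with 3.21 M reads, and its Styk1 share of 132 reads per M equalled that of cKO liver library 1 with 43.4 M reads. Control thymus library 1 held 129 reads per M, so its order against these cKO liver libraries depended on the scale used. Of the 3 control liver libraries, 2 were among the 10 libraries of 18.5 M to 43.4 M reads. The mean of cKO liver was 1017 times the value of the 3-read limit in control liver library 1 and 146 times that in the shallow library 3. These ratios leave out the spread of cKO liver, whose libraries ran from 1628 to 3528. In these bulk libraries, fewer cells with Styk1 RNA and less Styk1 RNA per cell cannot be told apart.

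Relative to other genes, Styk1 lay at the upper end of the transcriptome in 3 groups and at the bottom in control liver. Per kilobase of exon, its mean value was 962 in control thymus, 1932 in cKO thymus and 453 in cKO liver, above 93%, 97.5% and 85.2% of the 12521 tested genes with a known exon length. In control liver its mean value per kilobase was 0.391, above 1.54% of them. In cKO thymus library 1 it ranked 103rd of the 13058 tested genes by value, not corrected for length.

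On the log2(value + 1) scale, which understates folds against values near 0, Styk1 was 10.06 higher in cKO than in control liver (SE 0.70) and 1.04 higher in cKO than in control thymus (SE 0.70). The liver difference was the second highest of 13058 tested genes, and the thymus difference ranked 3853rd. Between tissues the difference of control liver minus control thymus was -11.12 (SE 0.70), the lowest of all tested genes. In cKO cells the difference between liver and thymus was -2.10 (SE 0.70). The comparisons share libraries: the control liver libraries enter both the liver difference between genotypes and the tissue difference in control cells.

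The value that selected Styk1 was the genotype difference in liver minus that in thymus, 9.03 (SE 0.99, limma adjusted p = 0.00036). It was 1 call among 13058 genes, or 0.00766% of them. The genes just outside the threshold of 0.05 were Klra1, the gene of the NK receptor Ly49A, at 3.07 (SE 0.54, limma adjusted p = 0.13), and Izumo1r, the gene of folate receptor 4, at -7.32 (SE 1.35, limma adjusted p = 0.13). They were followed by granzyme B, Gzmb, at 1.76 (SE 0.33, limma adjusted p = 0.13), the matrix protease gene Mmp9 at -11.14 (SE 2.21, limma adjusted p = 0.2) and Il2rb, the receptor chain shared by interleukins 2 and 15, at -1.01 (SE 0.21, limma adjusted p = 0.33). The sizes of these differences did not follow their order, and that of Mmp9 was larger than that of Styk1 with an SE more than 2 times as large. The gap between Styk1 and the other genes depended on the processing: with values rescaled by TMM Klra1 was also called, and edgeR on the recovered reads called Mmp9, Styk1 and Klra1. With a pseudocount of 10, Mmp9, Izumo1r and Styk1 were called.

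**Figure D2:**
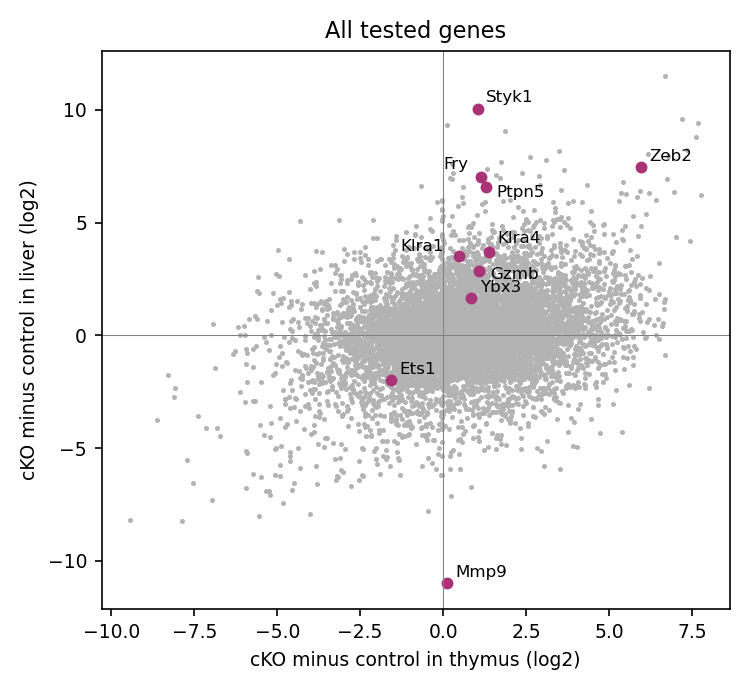
Difference between cKO and control cells on the log2(value + 1) scale in thymus (horizontal axis) and liver (vertical axis) for the 13058 tested genes, with 10 genes named in the text labelled. Styk1 lies at 1.04 in thymus and 10.06 in liver, with Fry and Ptpn5 nearest to it among the labelled genes.

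A pattern in which the control liver libraries stood below the rest was not limited to Styk1, but no other gene had it at comparable size. All 3 control liver libraries lay below the other 9 for 72 tested genes (0.551%), and by at least 4-fold on value + 1 for 4 of them (0.0306%). The same count was 234 genes (1.79%) for control thymus, 114 (0.873%) for cKO thymus and 138 (1.06%) for cKO liver. The gap, the lowest of the other 9 libraries over the highest library of the group on value + 1, was 233 for Styk1. The largest gap was 6.56 in control thymus (Tmem138), 47.7 in cKO thymus (Cfap54) and 14.7 in cKO liver (Izumo1r).

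The genes with the next largest gaps in control liver were Fry at 21.5, Ptpn5 at 11 and Klra1 at 6.08. They were followed by ENSMUSG00000088110 at 3.77, Gm15854 at 3.75, Timp2, an inhibitor of matrix metalloproteases, at 2.82, and Slc41a2, a magnesium transporter gene, at 2.57. Of the tested genes, 466 had at most 7 reads over the control liver libraries, as Styk1 did. Styk1 was the 1 gene among them with a value of at least 1000 in all 9 other libraries, and also the 1 gene with at least 100. The second of them in order, Car5b, had 11 in the lowest of those libraries. The limit of 7 reads was the total of Styk1 itself, so these counts depend on it. Fry, with 8 reads over control liver, fell just outside the limit and had at least 167 in all 9 other libraries.

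Fry encodes a large scaffold protein that works with NDR-family kinases, and it was the gene whose profile over the 12 libraries was most like that of Styk1. Likeness was the root mean square difference between profiles of log2(value + 1), each centred on its own mean, which was 1.63 for Fry against a median of 5.13 over the 13057 other tested genes. Fry values were 584, 209 and 939 in control thymus, 1399, 679 and 1324 in cKO thymus, and 167, 347 and 551 in cKO liver. In control liver they were 0, 6.84 and 0.883, from 0, 8 and 0 reads. The same control liver library, number 2, held the few reads of both genes. The cKO liver library with the most Styk1, number 1, was the one with the least Fry.

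Ptpn5 encodes a tyrosine phosphatase known from neurons, STEP, and was second at a root mean square difference of 2.23. Its values were 1859.8, 2576 and 1425 in control thymus, 4616, 6009 and 3512 in cKO thymus, and 2368, 2884 and 2029 in cKO liver. In control liver they were 1.72, 42 and 128, from 2, 49 and 21 reads. Ptpn5 thus had reads in all 3 control liver libraries, where Styk1 had them in 1.

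**Figure D3:**
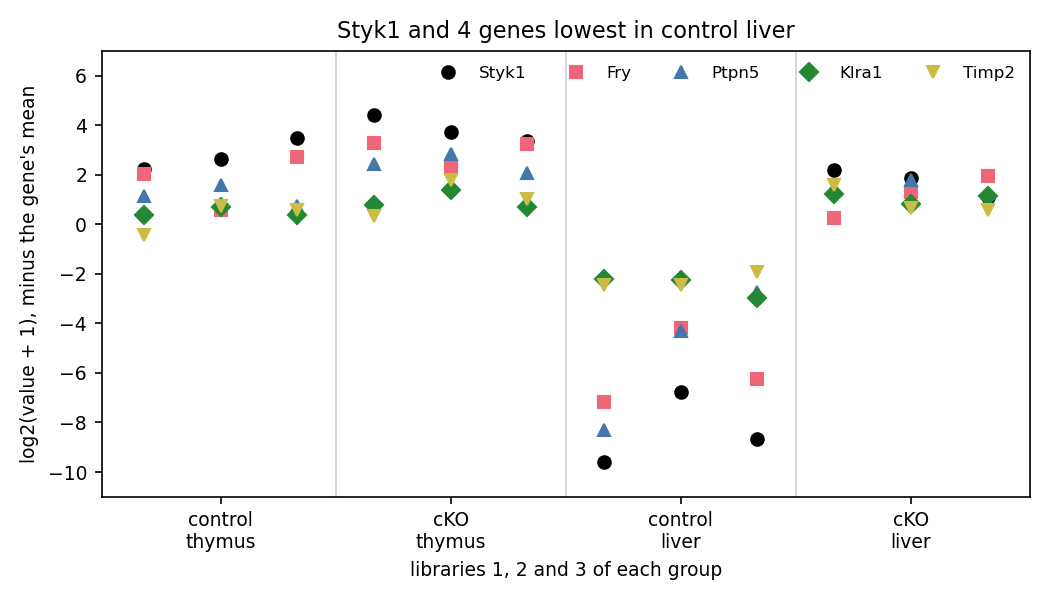
log2(value + 1) of Styk1, Fry, Ptpn5, Klra1 and Timp2 in each of the 12 libraries, minus each gene's own mean, by group. All 5 genes are lowest in the control liver libraries, and the distance is largest for Styk1.

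The other genes of the 8 most alike were Ret (2.72), the receptor tyrosine kinase for GDNF-family ligands, Calca (2.98), the gene of calcitonin and CGRP, Tktl1 (2.99), a transketolase-like gene, Pmepa1 (3.00), a membrane adaptor that binds NEDD4-family ligases, Ccr8 (3.10), a chemokine receptor gene, and ENSMUSG00000088110 (3.13). Ret values in control liver were 0, 4.26 and 0.875, against 113, 134 and 24.9 in cKO liver. In control thymus Ret ranged from 3.5 to 312, so 1 library there lay as low as control liver, which was not so for Styk1. Ccr8 was 0, 55.8 and 0.887 in control liver and 69.4, 108 and 29.2 in cKO liver, so these groups overlapped. It was 2609.7, 10829 and 1799 in control thymus. Ccr8 thus followed Styk1 in the fall from control thymus to control liver and not in its level in cKO liver.

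Over the 12 libraries, Pearson's r with Styk1 on the log scale was 0.98 for Fry, 0.93 for Ptpn5, 0.90 for Pmepa1 and 0.78 to 0.86 for the other 5. These are descriptions of genes chosen for likeness in these same libraries, and the points of both genes share each library's depth and scaling. Ranking by Pearson's r in place of distance kept 2 of the 8, Fry and Ptpn5, and brought in Klra1, Myo1f, Coro2a, Plec, Timp2 and Gm15854.

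None of the genes measured next to Styk1 on chromosome 6 had its levels over the 4 groups. Within 500 kb the annotation lists 34 other genes, 11 of them protein coding, and 3 were in the table, all on the minus strand as Styk1 is and none overlapping it. None of the 3 was called by limma in either genotype comparison or between tissues in control cells. The background of calls was 0.505% of tested genes for liver, 0.636% for thymus and 0.605% between tissues.

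Ybx3, which encodes a Y-box DNA- and RNA-binding protein, lies 11.3 kb from Styk1 (131364855 to 131388476). Its values were 2510, 2376 and 1520.5 in control thymus, 4128, 3214 and 3999 in cKO thymus, 1007, 668 and 976 in control liver and 3069, 2898 and 2375 in cKO liver. Its control liver libraries were below all 9 others, as those of Styk1 were, but with a gap of 1.51. The liver difference between genotypes was 1.67 (SE 0.38, limma adjusted p = 0.055). It was called under 4 of 19 alternatives, with a pseudocount of 10 and without each control thymus library in turn (limma and edgeR adjusted p from 0.033 to 0.49 over all alternatives).

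Magohb, a gene of the exon junction complex, lies 5.9 kb from Styk1 on the other side (131284388 to 131293244). It had values of 34.8, 104 and 153 in control liver, 439.6, 314 and 833 in cKO liver, 187, 5.81 and 319.7 in control thymus and 1721, 284 and 1289 in cKO thymus. Control thymus library 2 was its lowest library, so control liver was not set apart. The liver difference was 2.55 (SE 1.30, limma adjusted p = 0.78).

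Klra2, a Ly49-family NK receptor gene, lies 51.8 kb away (131219223 to 131247362). Its values were 0, 0 and 25.4 in control liver, 292, 232 and 392 in cKO liver, 9, 2.34 and 67.7 in control thymus and 250.5, 339 and 217 in cKO thymus. Both control groups were low and overlapped, and both cKO groups were high. Klra2 therefore differed from Styk1 in control thymus, where Styk1 was plentiful. The liver difference of 6.65 (SE 1.74, limma adjusted p = 0.098) and the thymus difference of 4.33 (SE 1.74, limma adjusted p = 0.29) were not called.

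**Figure D4:**
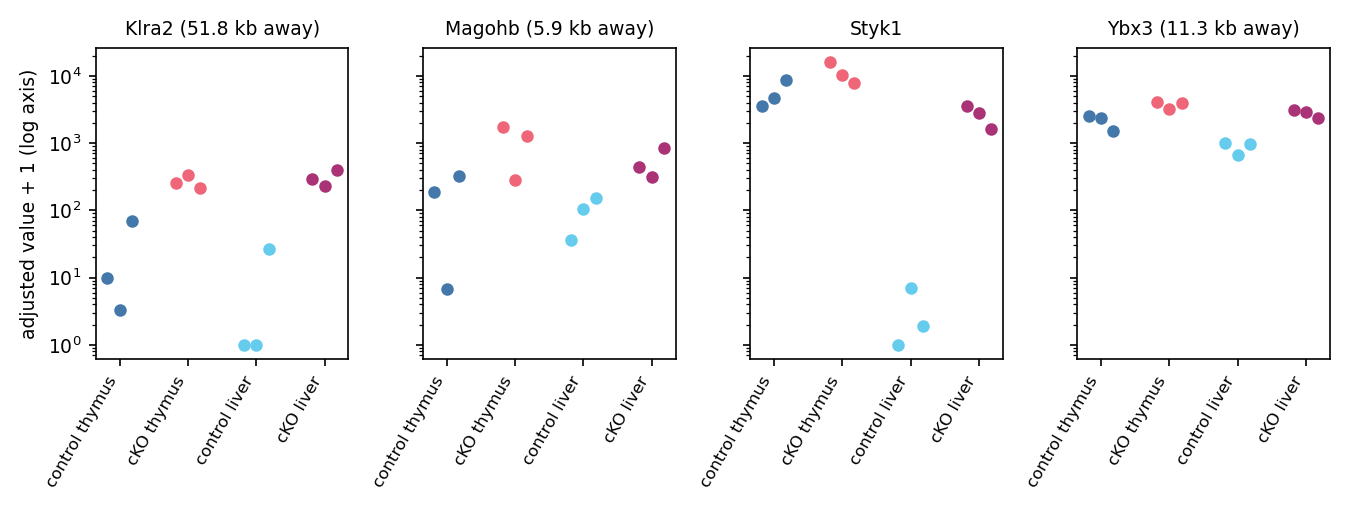
Normalised value plus 1 (log axis) of Styk1 and the 3 tabled genes within 500 kb of it, in their order on chromosome 6, in each library of the 4 groups. In control liver Styk1 lies at 0 to 5.98, while Ybx3 stays between 668 and 4128 in all 12 libraries.

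NK receptor genes are the genes with which Styk1 is best known to be expressed. Of 29 listed, 27 were tested. In control cells, 6 of the 27 were lower in liver than in thymus and 0 were higher (background 0.268% lower), and the median difference was -1.71 against 0.28 over all tested genes. With edgeR 5 were called. The 6 were Klrd1 (CD94) at -2.34 (SE 0.28), Klrk1 (NKG2D) at -1.71, Klrc2 (NKG2C) at -2.61 and the Ly49 genes Klra1 at -2.97 (SE 0.38), Klra5 at -4.27 (SE 0.52) and Klra9 at -5.39, with limma adjusted p-values from 0.00035 to 0.046. The calls of Klrd1, Klra1, Klra5 and Klra9 held under all 19 alternatives, that of Klrc2 was lost under 5 and that of Klrk1 under 12.

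In liver, 2 of the 27 receptor genes were higher in cKO than in control cells and 0 were lower (background 0.314% higher), with a median of 0.17 against 0.02 over all tested genes. They were Klra1, at 3.54 (SE 0.38, limma adjusted p = 1e-04), and Klra4, at 3.71 (SE 0.58, limma adjusted p = 0.0032). Klra1 values were 466, 461 and 274 in control liver and 5020.3, 3811 and 4863 in cKO liver. In thymus they were 2849, 3519 and 2840.4 in control and 3749.9, 5713 and 3528 in cKO cells. Klra1 was thus lowest in control liver, as Styk1 was, with 274 to 466 where Styk1 had 0 to 5.98. Unlike Styk1, its cKO liver libraries all lay above its control thymus libraries.

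Klra4 values were 335, 146 and 92 in control liver and 2301, 1632 and 2757 in cKO liver. Its control thymus values of 1038, 556 and 814 lay between them. Its call was lost without the 2 libraries of lowest depth (limma adjusted p = 0.11). Klra1, Klra4 and Klra5 were the 3 of 27 receptor genes whose control liver libraries were all below the other 9, against 0.551% of tested genes. Many Ly49 genes are nearly identical in sequence, so reads may have been split among them or lost, and values of single Klra genes are uncertain.

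In thymus none of the 27 was called by limma or by edgeR (background 0.636%), and 8 had an unadjusted limma p under 0.05, against 13.2% of all tested genes. The most abundant receptor genes that were not called in liver included Cd226 (DNAM-1), with a mean of 12833 over all libraries and a liver difference of 0.31 (SE 0.28), and Klrb1c (NK1.1), with 7276 and 0.16 (SE 0.35). Klrb1c values in control liver were 5363, 5821 and 4101, so the gene of NK1.1 was present in the libraries in which Styk1 was at or near 0 reads.

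**Figure D5:**
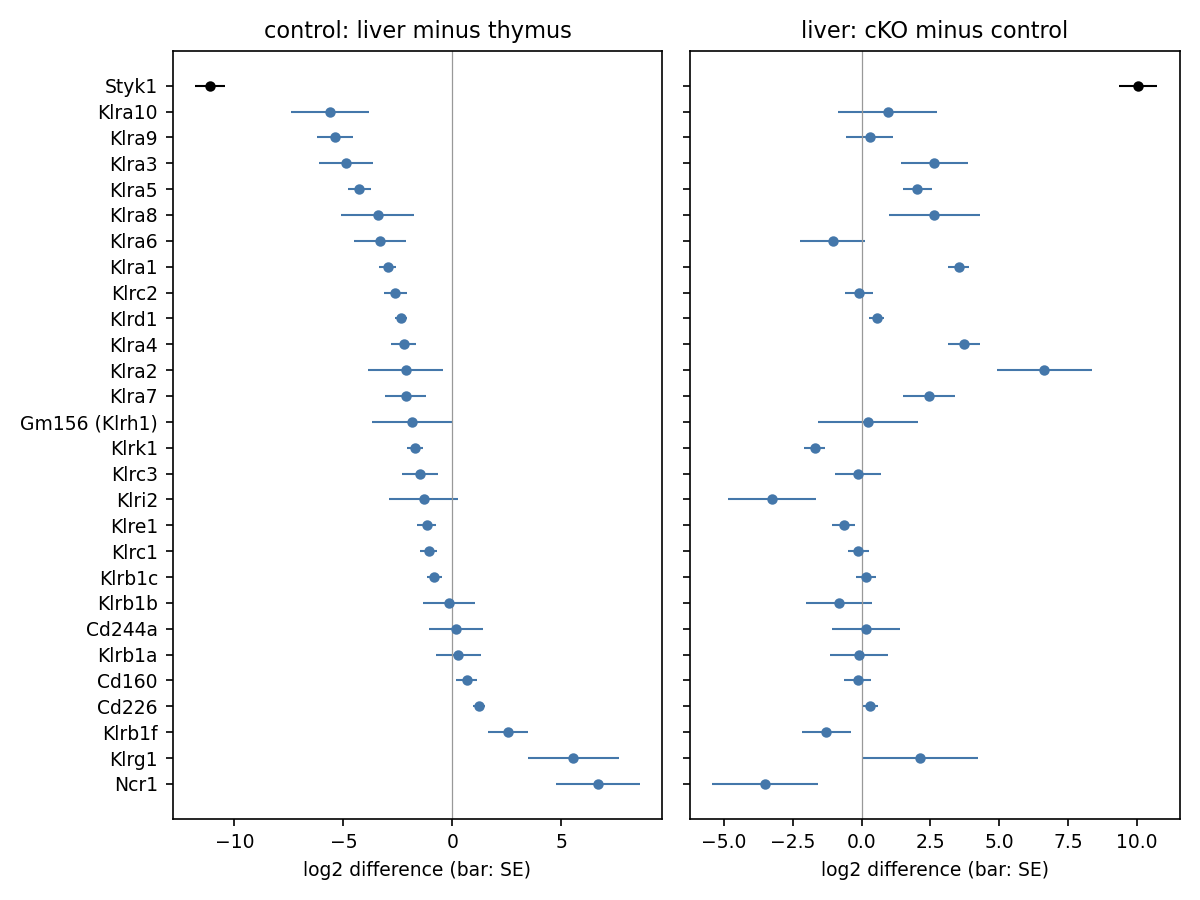
Differences on the log2(value + 1) scale (points, with SE bars) for Styk1 and the 27 tested NK receptor genes: control liver minus control thymus (left) and cKO minus control in liver (right). Styk1 lies at -11.12 and 10.06, outside the range of the receptor genes in both panels.

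Genes of the pathways in which the STYK1 protein is placed are given next. For lists of this size, a count of 0 is near the background of calls (0.505% of tested genes for liver, 0.636% for thymus and 0.605% between tissues), so nothing is read from it. Over all tested genes, 6.92%, 13.2% and 12.7% had an unadjusted limma p under 0.05 in these comparisons, and the medians were 0.02, 0.24 and 0.28. Of 27 tested PI3K and AKT genes, 0 were called by limma or edgeR for liver between genotypes (2 with an unadjusted limma p under 0.05), for thymus (6) or between tissues in control cells (5). The median differences were -0.10, -0.13 and -0.02. Pik3r1, the regulatory subunit of PI3K, Foxo3, a transcription factor that AKT inhibits, and Pdpk1, a kinase that activates AKT, had the highest means. Pik3r1 values in control liver were 7683, 10036 and 7244, and in cKO liver 8530.4, 7096 and 7097, a difference of -0.13 (SE 0.28).

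Of 29 tested genes of the RAS and MAP kinase pathway, 0 were called by limma or edgeR in any of the 3 comparisons, and 1, 4 and 7 had an unadjusted limma p under 0.05. The median differences were 0.19, 0.20 and 0.15. The highest means were those of Rps6ka3, a kinase that ERK activates, Rasa1, a RAS inhibitor, and Nras. Rps6ka3 differed by 0.09 (SE 0.26) between genotypes in liver.

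Of 30 tested autophagy genes around the Beclin 1 complex, 0 were called by limma or edgeR, and 0, 5 and 5 had an unadjusted limma p under 0.05. Becn1, the gene of Beclin 1, had values of 428, 905 and 752 in control liver and 761, 1039.7 and 868 in cKO liver, and the groups overlapped. Pik3c3, the lipid kinase of the complex, had 1020.4, 1219.5 and 1333 in control liver and 1099.9, 1646 and 1525 in cKO liver, which also overlapped. Bcl2, which binds Beclin 1, had the highest mean of this list, 12510.1, and a liver difference of 0.17 (SE 0.22).

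Receptor tyrosine kinases, the class of receptors that Styk1 resembles, were mostly not in the table: 14 of 54 listed genes were, and 13 were tested. None of the 13 was called by limma or edgeR in the 3 comparisons, and 3 had an unadjusted limma p under 0.05 in each. The highest means were 1826 for Lmtk2 and 1132 for Insr, the insulin receptor gene. Ret, one of the 8 genes most like Styk1, had a liver difference of 5.10 with an SE of 1.75.

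Ets1 itself, the deleted gene, was lower in cKO cells of both tissues, with a difference of -1.58 in thymus (SE 0.27, limma adjusted p = 0.0095) and of -1.97 in liver (SE 0.27, limma adjusted p = 0.0012). The thymus call was lost without cKO thymus library 3 (limma adjusted p = 0.071). Its values ranged from 19493 to 28051 in control thymus, 5788 to 11817 in cKO thymus, 15910.2 to 18773 in control liver and 3594 to 5787 in cKO liver. The gene-level value counts reads outside the floxed part too. The control liver libraries lay below the control thymus libraries, with a difference of -0.41 (SE 0.27, limma adjusted p = 0.56) that was not called. Tbx21 ranged from 1386 to 5762, 3673 to 6832, 2321 to 3513 and 4267 to 6321 in the same order of groups, and it was not called in these comparisons.

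Of 34 transcription factor genes of type 1 and innate-like lymphocytes, 3 were called in liver between genotypes: Zeb2 was higher by 7.47 (limma adjusted p = 0.022), Ikzf2 (Helios) higher by 1.88 (limma adjusted p = 0.03) and Ets1 lower (background 0.314% higher and 0.191% lower). Zeb2 values were 35.6, 107 and 6.96 in control liver and 8691, 4337 and 4646 in cKO liver. Unlike Styk1, Zeb2 was as low in control thymus libraries 1 and 2 (2.26 and 12.7) as in control liver, with 831 in library 3. Zeb2 lost its call under 7 alternatives and Ikzf2 under 8. In thymus, Rora (2.56, limma adjusted p = 0.0004) and Ikzf3 (1.11, limma adjusted p = 0.043) were higher in cKO cells, and Stat4 was lower (-1.64, limma adjusted p = 0.013), as was Ets1 (background 0.314% higher and 0.322% lower). The Rora call held under all 19 alternatives, that of Ikzf3 was lost under 13, TMM and edgeR among them, and that of Stat4 under 4. Between tissues in control cells 1 gene was called, Rora, higher in liver by 1.45 (limma adjusted p = 0.021; background 0.337% higher). This call was lost under 5 alternatives, including TMM and leaving out the 2 libraries of lowest depth (limma adjusted p up to 0.16).

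Markers of iNKT cells were detected in every group, and none of the 7 was at 0 reads over a group. The sum of the 7 (Cd3d, Cd3e, Cd3g, Cd247, Zbtb16, Lat and Cd5) was 63129 to 69313 in control liver, within the range of the other groups (43679 to 77849.8). The sum of 8 type 1 markers was 116026 to 120632 in control liver and 106574 to 139214 in cKO liver. In control thymus it was lower than in control liver, at 69187 to 95555. In cKO thymus it was 99301 to 112879, which overlapped cKO liver. NK cell markers, from cells in which Styk1 is also known, had sums of 7932 to 13772 in control thymus, 5730.1 to 8199.8 in cKO thymus, 2402 to 6941 in control liver and 3253 to 4333 in cKO liver. All 8 were in the table, and 5 of them (Ncr1, Klra8, Klra9, Klri2 and Klrb1f) are also in the receptor list. The members did not move together. Ncr1, the gene of NKp46, was at 0 reads in all 6 thymus libraries and had values of 616, 13.7 and 131 in control liver and 233, 0.936 and 0.834 in cKO liver. Klrb1f and Eomes also had their highest means in control liver (1835 and 134). The mean of Eomes came from 1 library: its values were 395, 0 and 7.19 in control liver and 109.6, 34.2 and 59.4 in cKO liver. Klra9 had means of 6419 in control thymus and 238 in control liver, and Spry2 of 2118 and 362. The means of Klri2 were 1109 and 409 in these groups, and those of Klra8 were 233 and 35.4. Itga2 had its highest mean in cKO thymus (2237), with 989.5 in control liver. The part of NK cells in the Styk1 levels was not tested.

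Some markers of other cells also moved with the groups. The sum of the 8 tabled hepatocyte markers was 1496 to 2051 in control liver and 881 to 1836 in cKO liver, and at most 447 in thymus. Of 10 listed endothelial markers, 7 were not in the table. The other 3 summed to 466 to 946 in control liver and at most 302 elsewhere, mostly from Pecam1. Of 10 listed neutrophil markers, 9 were not in the table. The remaining 1, Mmp9, was at 3033 to 3585 in control liver and at most 2.55 elsewhere. The 6 tabled macrophage markers summed to 66.2 to 1190.3 in control liver, 0.16 to 279 in control thymus and 114 to 544 in the cKO groups. These ranges overlapped. The 6 tabled B cell markers summed to 3157 to 5352 in control thymus and 1517 to 5751 in cKO thymus. The sums were 5471 to 8085 in control liver and 1085 to 2082 in cKO liver. In control thymus 4 of the 6 were at 0 reads, and in each other group 1 was. One of the 6, Ighm, the heavy chain gene of immunoglobulin M, had values of 7338, 6942 and 5257 in control liver and 1983, 1081 and 1339.8 in cKO liver. Immature thymocyte markers summed to 406 to 1839 in control thymus, 5024 to 6468 in cKO thymus, 7762 to 9185 in control liver and 12237 to 20813 in cKO liver, mostly Themis and Ccr9, which mature T cells also express. The part of these cells in the Styk1 levels was not tested.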

How the data were processed

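Per the labels' protocols, RNeasy mini kits and the Ovation Ultralow library system were used. Listed without roles in the submitters' processing notes are HTSeq 0.6.1, TopHat2 2.1.0, Trimmomatic 0.33, DESeq2, STAR and mm10. Whether strand was used in counting, and how reads shared by similar genes were treated, are not given in the sources used here. The authors deposited 1 table of a library-size-adjusted signal for 14004 genes in 12 libraries, here called normalised values. The values were not whole. Whole reads passed through a quantile adjustment under a negative binomial model matched them (fitted dispersion 1.5), a step inferred from the values and not stated. Inverting it gave reads: 96.2% of 54803 values under 40 reads came within 0.1 of a whole read (86.8% and 88.3% in the shallow control liver library 3 and cKO liver library 2, at least 97.4% in the others). In all 12 columns the reads rest on that inversion alone.

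Symbols (13359 matched, 645 not) and positions came from GENCODE M21. The test covered the 13058 genes that reached 10 in 3 or more libraries and left out 946. In R 4.3.3, limma 3.58.1 was fitted to log2(value + 1) with 4 group means, a variance trend and nothing else (residual degrees of freedom 8, prior 10.7). Two-sided p-values were adjusted over all tested genes (Benjamini-Hochberg, threshold 0.05). The alternatives were a pseudocount of 10, no filter, TMM and median-of-ratios rescaling, edgeR 4.0.16 quasi-likelihood tests on recovered reads (13083 genes), a replicate block, and leaving out each library or the 2 shallowest. In simulated counts for the liver comparison (13092 genes), limma recovered 17% of 4-fold and 58% of 16-fold changes, with 3 false calls among 78.

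Styk1, the gene lists and the comparisons were chosen with earlier results of these data known. The genes named are the 8 nearest in profile, the 8 with the largest control liver gap, the 5 next by interaction p, tabled genes within 500 kb, and of each list up to 4 called members per comparison and up to 3 others of highest mean; the fifth and sixth called receptor genes, Klrb1c, Klra4's and Zeb2's levels, Becn1, Pik3c3 and the single marker genes were added after their values were seen. Sequences of Styk1 were not used here.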

Additional observations from a re-analysis of the deposited data

Results flagged for a closer look

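The genotype difference of Styk1 in liver exceeded that in thymus by 9.03 on the log2(value + 1) scale, and the difference itself was tested. This is the value by which the gene was chosen, so it is no independent support.

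Il2rb, the receptor chain shared by interleukins 2 and 15, moved in opposite directions in the 2 tissues: all cKO thymus libraries lay above all control thymus libraries, and all cKO liver libraries below all control liver libraries. The liver difference minus the thymus difference was -1.01 (limma adjusted p = 0.33), which did not pass the threshold.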

How the results depend on the processing

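The differences of Styk1 kept their direction under all alternatives run. A pseudocount of 10 gave 7.72 for cKO minus control in liver, -8.78 for liver minus thymus in control cells and 6.69 for the difference of differences. Leaving out 1 library gave 9.44 to 10.85, -11.91 to -10.5 and 8.41 to 9.81 for these, 0.75 to 1.39 for thymus and -2.34 to -1.78 for liver minus thymus in cKO cells.

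Counts of called genes moved more. For liver (66), thymus (83) and control tissues (79), edgeR on recovered reads gave 39, 51 and 49, and leaving out the 2 shallowest libraries gave 9, 25 and 20. A pseudocount of 10 gave 104 for liver and 129 for thymus. Leaving out 1 library gave 19 (without cKO liver library 2) to 126 (without control thymus library 2) for liver, 21 (without cKO thymus library 3) to 542 (without control thymus library 3) for thymus, and 26 (without control liver library 2) to 395 (without control thymus library 3) for tissues. For the difference of differences (1), TMM gave 2, edgeR 3, a pseudocount of 10 gave 3, and leaving out 1 library gave 1 to 9, with 9 without control thymus library 3. Genes lowest in control liver (72) numbered 110 with TMM and 214 without the 2 shallowest libraries, and 82 to 208 without 1 library (208 without control liver library 2), and those lowest by 4-fold (4) numbered 13 and 4 to 12 (12 without control liver library 3). With fewer libraries in a group, more genes can lie below the rest. The cause of the other shifts was not tested.

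The difference of Magohb between control liver and control thymus, 0.16 and not called, was -0.13 with TMM, -0.84 with edgeR, -0.10 with a pseudocount of 10 and -0.28 without the 2 shallowest libraries, and -1.56 to 1.22 without 1 library (0.00 without control liver library 2). Of 25 called pairs of a named gene and a comparison, 11 kept their call under every alternative in which the gene was tested, 14 lost it under at least 1, and 0 reversed. The 11 include the Mmp9 pairs, for which 15 of the 19 alternatives could be run. Mmp9 reached the filter value of 10 only in the control liver libraries, so it was not tested where any of them was left out. TMM moved the median of all genes from 0.24 to -0.03 in thymus and from 0.28 to -0.01 between control tissues.

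Whether replicate numbers paired the libraries could not be settled. Same-numbered libraries of different groups correlated at -0.096 to 0.08 in their deviations (18 pairs), and other-numbered ones at -0.114 to 0.187. Yet most libraries, 8 of 12, correlated best with a library of their own number. With a replicate block the counts of called genes were 71 for liver, 81 for thymus, 68 for control tissues and 1 for the difference of differences. Genes with no call may have changed by several fold at this sample size.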
